A study of Mus musculus with 227 samples.

Results

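THY+ cells are 1 of 4 skeletal populations sorted from the long bones of newborn mice, and they are described here cell by cell across genes. All 72 libraries labelled THY+ were taken, beside 92 of 6C3+, 37 of mSSC and 26 of CSP cells, each library from 1 cell. Levels are FPKM, the fragments of a transcript per kilobase of its length, scaled to the library's fragments, and detection of a gene means an FPKM of 1 or more. With the spike-in rows left out, 43 of the 72 cells had at least 1000 detected genes and form the main set, and the other 29 cells served as a check. The mice were of the BL6 strain and 3 days old, and no treatment or genetic change is named. The THY+ gate was CD45-Ter119-Tie2-AlphaV+Thy+6C3-CD105+, which removes blood and most vessel lining cells and keeps CD105+ cells with surface Thy1. The populations set beside it came from the same strain, age and bones: 6C3+ cells (Thy-6C3+CD105+, with Tie2 not named in the gate), mSSC cells, which lacked Thy, 6C3 and CD105 and had CD200, and CSP cells, which had CD105 and neither Thy nor 6C3.

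The mouse skeletal stem cell is defined by surface antigens, and the THY+ and 6C3+ gates are used to collect committed progenitors or stroma downstream of it. Thy1 is a small GPI-anchored surface glycoprotein of fibroblasts and other mesenchymal cells. A Thy1+ gate in long bone can hold the fibrous sheath of bone (the periosteum), tendon and ligament attachments, marrow stroma, mural cells of vessels and early osteoblast lineage cells. These cell types are told apart by matrix genes such as Postn and Col1a1, by tendon genes such as Tnmd, by stromal factors such as Cxcl12 and by mural genes such as Rgs5.

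No animal or culture is named, so the population counted as 1 sample. Values are therefore given without p-values, as the lowest, median and highest over cells, and shares of cells carry exact Clopper-Pearson 95% intervals that cover counting error only. The 43 cells had 1202 to 5786 detected genes, with a median of 2835. The depth in reads is unknown. The share of all FPKM in the ERCC spike-ins, synthetic RNAs added at lysis, ran from 0.408% to 87.7% over these cells, with a median of 20.8%, and in the 29 other cells the median was 97.2%. The 9 main cells of the first index row, which share 1 index, had 0.408% to 1.36%. By the index names THY+ cells had a set of index pairs of their own, and CSP and mSSC cells shared another set. The sample labels used here name no plate or run. A difference between index sets and one between populations therefore cannot be told apart in the comparisons below. The cell with the most genes, with 5786 against 5239 in the next cell, held 12 of 14 pericyte and smooth muscle genes, 7 of 9 tendon genes, 13 of 14 chondrocyte genes and 11 of 14 fibroblast and periosteal genes. The labels state that imaged single cells were used; no doublet caller was run, and whether that library held more than 1 cell was not tested, so counts that rest on it are given with and without it.

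Promoter sequences are shown for 3 genes whose levels carry the account: Postn, Col3a1 and Rgs5. Nearly every cell had Postn, and Col3a1 had the smallest spread of the 4 marker genes. Rgs5 had the highest median of the pericyte and smooth muscle list in the cells with many of its genes. It is a member of the list that picked those cells. Each line gives the 250 bases before the start of the RefSeq transcript on the plus strand of GRCm38.p6, 5′ to 3′. Capitals mark TATAAA or TATATA, searched on both strands, where TATATA is its own reverse complement and matches may overlap. The windows are chr3:54360857-54361106 for Postn, chr1:45311288-45311537 for Col3a1 and chr1:169655251-169655500 for Rgs5.
Postn: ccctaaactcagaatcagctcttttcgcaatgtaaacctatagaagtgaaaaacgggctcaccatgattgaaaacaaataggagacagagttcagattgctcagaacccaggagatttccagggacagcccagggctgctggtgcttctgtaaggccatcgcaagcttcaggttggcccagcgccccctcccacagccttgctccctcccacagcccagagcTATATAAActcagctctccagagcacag
Col3a1: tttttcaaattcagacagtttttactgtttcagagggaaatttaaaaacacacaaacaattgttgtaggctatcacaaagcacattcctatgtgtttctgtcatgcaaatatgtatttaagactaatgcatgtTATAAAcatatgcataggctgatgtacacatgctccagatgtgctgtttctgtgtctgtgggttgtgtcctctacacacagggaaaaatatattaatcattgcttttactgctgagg
Rgs5: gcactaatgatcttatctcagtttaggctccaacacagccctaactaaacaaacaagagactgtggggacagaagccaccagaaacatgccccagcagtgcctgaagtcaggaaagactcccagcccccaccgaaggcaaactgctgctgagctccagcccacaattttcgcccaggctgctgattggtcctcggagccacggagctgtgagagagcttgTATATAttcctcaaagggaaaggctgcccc
The matches began 28 and 26 bases before the start in Postn and 30 bases before it in Rgs5, and lay farther upstream in Col3a1. Of 32851 RefSeq windows of this length 15.6% held a match on either strand, and a match describes letters only. Thy1 and Col1a1 had no entry in the table.

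Of the 4 marker genes given for the label, 3 were detected in nearly every cell and Thy1 in a minority. Col1a1 and Col3a1 were not called against 6C3+ cells. In mean log2(FPKM + 1), THY+ minus 6C3+, Col1a1 differed by 1.73 and Col3a1 by 0.77, under the 2 used for a call below. Postn differed by 3.10. None of the 7 sort antigen genes, Thy1 among them, was called higher in THY+ than in 6C3+, CSP or mSSC cells. Of the 29 cells with under 1000 genes, Col1a1 was detected in 28, Col3a1 in 22 and Postn in 14. Col1a1 encodes the alpha 1 chain of type I collagen, the main fibre of bone and tendon (chromosome 11, 94936224 to 94953042 in mm10). Its FPKM was 0 at the lowest, 4966 at the median and 91737 at the highest, and it was detected in 42 of 43 cells (97.7%, 87.7 to 99.9). Col3a1 encodes type III collagen of elastic and growing connective tissue (chromosome 1, 45311538 to 45349706), and its FPKM ran from 0.409 through 1135 to 6757, with 42 of 43 cells detected. Postn encodes periostin, a matrix protein of periosteum and ligament (chromosome 3, 54361109 to 54391037). It was detected in 41 of 43 cells (95.3%, 84.2 to 99.4), with a median FPKM of 837 and a highest value of 62102. Thy1 itself (chromosome 9, 44043384 to 44048579) was listed in 9 of 43 cells (20.9%, 10 to 36), at up to 349, and in 0 of the 29 other cells. The gate was set on the protein, and a transcript at 0 in the table may still have been in the cell. Among the other sort antigens, Itgav, the AlphaV integrin, was detected in 26 cells, Eng, which encodes CD105, in 10, Cd200 in 13 and Enpep, which encodes 6C3, in 3. Ptprc (CD45) and Tek (Tie2) were detected in 0 of 43 cells, which allows a share of up to 8.22% each.

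**Figure D1:**
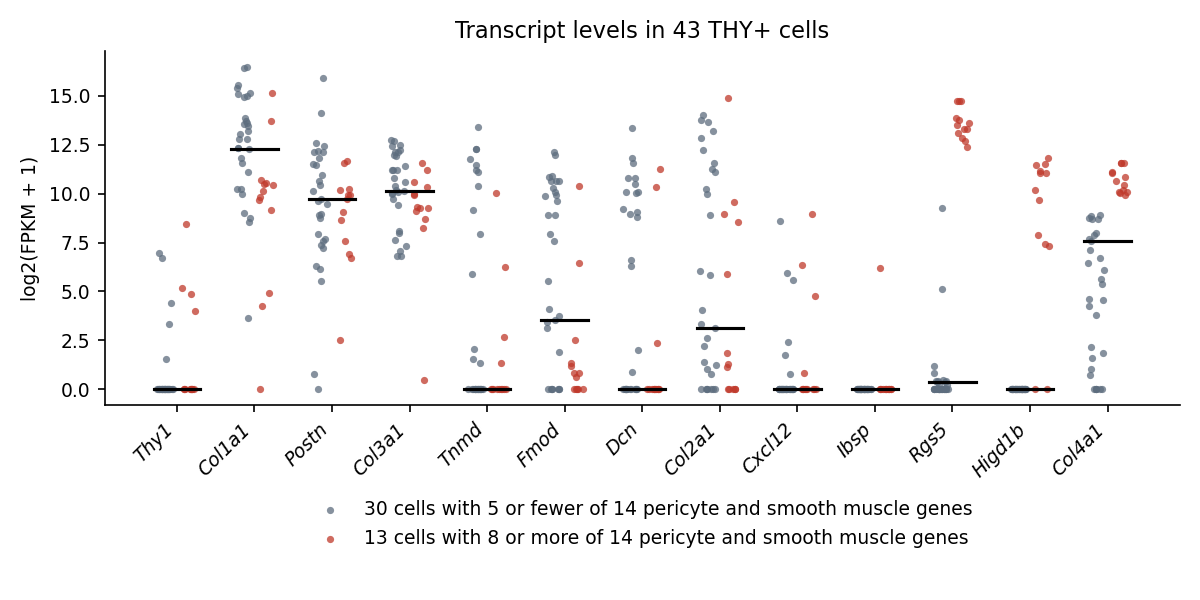
Levels of 13 genes in each of the 43 THY+ cells, as log2(FPKM + 1), 1 point a cell and a bar at the median. Red points are the 13 cells with 8 or more of 14 pericyte and smooth muscle genes, of which Rgs5 is 1. Their Rgs5 and Col4a1 lie above those of all 30 other cells, while Col1a1, Postn and Col3a1 overlap.

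Actb and Col1a1 had the highest median levels of the named genes. Ribosomal protein genes, 8 of the 25 highest medians over all genes, are left out here. The 25 named genes of highest median FPKM made up 5.18% to 31.7% of a cell's FPKM, with a median of 13.3%. Actb, cytoplasmic actin, stood first, with a median of 10517 and a range of 22.3 to 58766. Col1a1 came second. Col1a2, the partner chain of type I collagen, stood lower among the 25, after Eef1a1, Vim and Fstl1, at a median of 3668 (62.6 to 80533). Other secreted or matrix products among the 25 were Sparc, a collagen-binding glycoprotein (median 3255), Fstl1, a secreted follistatin-like protein (3946), Mgp, an inhibitor of calcification (3636), and Bgn, a small leucine-rich proteoglycan (1523). Vim, the mesenchymal intermediate filament, had a median of 4241 and the actin-binding peptide gene Tmsb4x one of 2239. The others included S100 and LIM proteins (S100a6, S100a11, Crip1), a galectin (Lgals1), the translation factor Eef1a1, the ubiquitin gene Ubb and the nuclear RNA Malat1. Actb, Eef1a1, Ppia, Tmsb4x and Fth1 have processed pseudogenes, and how shared reads were assigned is not given in the sources used here.

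Few genes were shared by all cells. In all, 13053 genes were detected in at least 1 of the 43 cells, and only 10 of them in every cell. Detection in at least 50% of cells was reached by 1598 genes. At the other end, 4952 genes were listed in 1 to 4 cells.

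Type I and type III collagen transcripts went together across cells, as did the type VI chains. Basement membrane collagen did not follow type I. Spearman's rho across the 43 cells was 0.89 between Col1a1 and Col1a2, 0.77 between Col1a1 and Col3a1, and 0.72 between the type VI chains Col6a1 and Col6a2, which form 1 trimer with Col6a3. On rescaled values these were 0.91, 0.77 and 0.67. Between the families rho was 0.58 for Col1a1 with Col6a1 and 0.47 for Col3a1 with Col6a1. Rescaled, these 2 were 0.46 and 0.23. Pairs with Col6a3 did not keep the families apart. Col3a1 with Col6a3 had 0.68, beside 0.66 for Col6a1 and 0.72 for Col6a2 with Col6a3. On rescaled values these were 0.47, 0.58 and 0.51. Between Col1a1 and Col4a1, a basement membrane chain, rho was -0.17, and -0.36 on rescaled values. The rank correlation with the number of detected genes was 0.28 for Col1a1 and 0.50 for Col6a1, and the cells share an index set. Outside the first index row (34 cells), the Col1a1 and Col1a2 value was 0.85. Col1a1 and Actb, the leading genes, had a rho of -0.02, which became -0.46 with FPKM rescaled to the same endogenous total in each cell.
The fibrous collagen list of 14 genes had a median of 12 detected members per cell (2 to 14). Col5a2, which sets fibril width with type I collagen, had a median FPKM of 264 and Col6a2 one of 782, against 31.7 for Col16a1 and 0 for Col8a1, which was detected in 9 cells.

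Cell-to-cell spread was measured as the SD of log2(FPKM + 1) over the 43 cells, among the named genes with a median FPKM of at least 100. The SD ran from 1.49 to 5.03, with a median of 3.81. Malat1 had the smallest (1.49; FPKM 62.8 to 14408), followed by Sparc (1.82; 123.99 to 30644), the chaperone Hsp90ab1 (1.98) and the imprinted non-coding RNA Meg3 (2.00). Col3a1 (2.22), Col1a2 (2.41) and Col6a3 (2.43) were also among the 12 genes of smallest spread. Itm2a, a membrane protein of developing cartilage and muscle, had the largest SD (5.03; 0 to 37269, median 911), and Mgp, the matrix gene among the 12 of largest spread, had 4.76 (0 to 23805). Cdkn1c, an imprinted inhibitor of the cell cycle (4.75), and Tppp3, a tubulin-binding protein found in tendon sheath (4.69), were also among those 12. The rest of those 12 included the redox enzymes Gpx1 (4.90) and Sod1 (4.64) and the respiratory chain genes Ndufa1 (4.81), Ndufa4l2 (4.78) and Cox6a1 (4.77).

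Spread moved with transcript length. Of these genes 292 had an annotated length, and Spearman's rho across these genes, which are not independent, was -0.53 between SD and the longest transcript. The 75 genes with no transcript over 1000 bases had a median SD of 4.12, and the 59 genes with one of at least 3000 bases had 3.18, at median FPKM of 325 and 320. Malat1 (6983 bases) and Meg3 (14548 bases) are long, and Ndufa1 (419 bases), Mgp (617 bases) and Sod1 (641 bases) are short. The part of length in the spread was not tested.
Of the genes detected in 25% to 75% of cells, Gpx1, Ndufa4l2 and Atp5o had the highest mean levels, with 30, 31 and 32 cells. Aspn, which encodes asporin, a matrix protein of periosteum, tendon and ligament, was the matrix gene among these 15, with 32 cells and a highest FPKM of 8832.

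**Figure D2:**
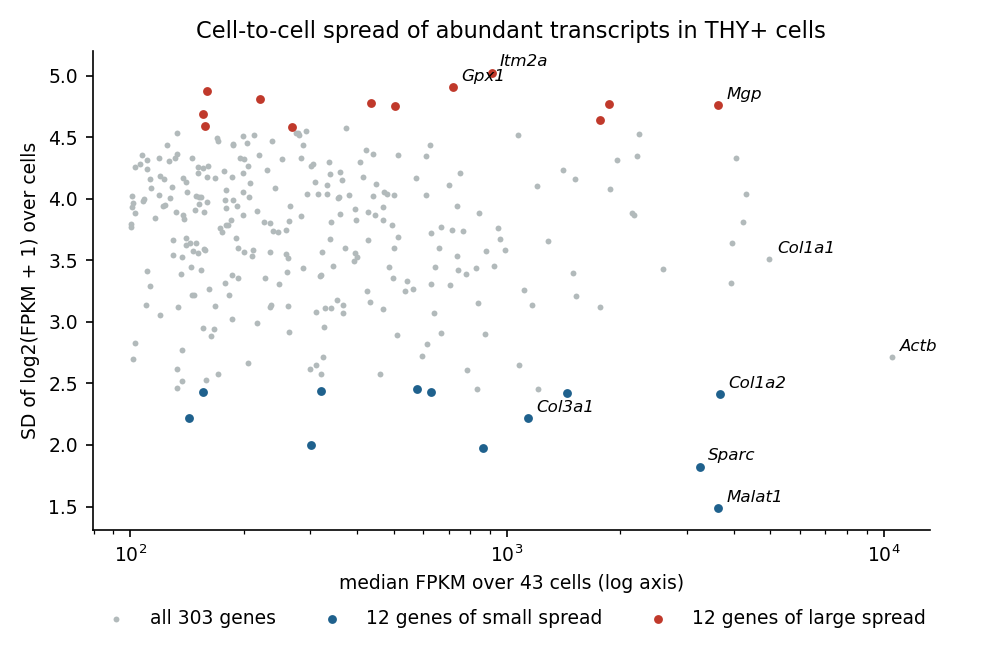
SD of log2(FPKM + 1) over the 43 THY+ cells against the median FPKM (log axis), 1 point a gene, for the named genes with a median of at least 100. The 12 genes of smallest spread (blue, 1.49 for Malat1) include Sparc, Col3a1 and Col1a2, and the 12 of largest spread (red) include Itm2a (5.03), Gpx1 and Mgp.

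Periosteal and fibroblast genes were present in every cell in differing numbers. A cell had 1 to 11 of the 14 members, with a median of 7. Below Postn and Col3a1 came Fbn1, which encodes the microfibril protein fibrillin (33 cells), Aspn (32 cells), Ctsk, a collagen-degrading protease that also marks periosteal cells (26 cells), and Pdgfra, the PDGF receptor of mesenchymal fibroblasts (22 cells). Of the small proteoglycans, Dcn and Lum were in part of the cells only, while Bgn, outside this list, was detected in 42 cells. Dcn (decorin) was detected in 19 cells, at FPKM of up to 10575, and Lum (lumican) in 21, at up to 5863. Both were detected in 15 cells (34.9%), Dcn alone in 4, Lum alone in 6 and neither in 18, with a rho of 0.66. Pdgfra went with Lum (rho 0.54, 16 cells with both) more closely than with Aspn (0.06, 16 cells with both). The universal fibroblast markers Cd34 (10 cells), Dpt (9), Clec3b (8), Ly6a (3) and Pi16 (1) were in few cells.

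Tendon genes ranged from 0 to 9 of 9 members per cell, with a median of 4. The matrix genes Col12a1 (36 cells), Tnc (tenascin C, 33 cells), Col14a1 (31 cells) and Fmod (fibromodulin, 28 cells) were the most often detected. Tnmd, a membrane glycoprotein of mature tendon cells, was detected in 18 cells (41.9%, 27 to 57.9) at up to 10868. Thbs4 was detected in 17, the keratan sulfate proteoglycan gene Kera in 11, at up to 13548, and the transcription factors Mkx in 9 and Scx in 5.
In 12 cells 6 or more of the 9 genes were detected; 4 of these had exactly 6, and 8 other cells had 5, so this count marks a range and not a cell type. Outside the list, Col1a1 had a median of 23273 in the 12 cells (3080 to 91737) and 1423 in the other 31 (0 to 88333), with overlap. Acan, the cartilage proteoglycan aggrecan, was detected in 12 of 12 cells (13.6 to 417) and in 13 of 31. Egr1, an immediate-early factor also known from tendon, had medians of 4150 and 604, with overlap. Fos, another immediate-early gene, moved the same way (3427 and 284.9), and its part was not tested. Thy1 was listed in 0 of the 12 cells and 9 of the 31.
By rank across cells, genes among the 5 most like Tnmd were Ptgis (prostacyclin synthase, rho 0.74), Nr4a2 (an immediate-early nuclear receptor, 0.61), Kcnma1 (a potassium channel, 0.58) and Dkk3 (a secreted glycoprotein, 0.57). Those most like Postn were Eif3i (0.67), Golt1b (0.65), Tmem263 (0.64), Lgals1 (0.64) and Anxa5 (0.63). Scx, with 5 cells, and Ibsp, with 1, were too sparse for such a ranking.

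Cartilage genes were found alongside the tendon genes. A cell had 0 to 13 of 14 chondrocyte genes, with a median of 5, and the counts of the tendon and chondrocyte lists had a rho of 0.59 (0.66 outside the first index row). Fmod and Acan were detected together in 23 cells, with 5 cells for Fmod alone and 2 for Acan alone (rho 0.75). Col2a1, the cartilage collagen, went with Comp, a matrix protein of cartilage and tendon (19 cells with both, rho 0.75). Its link to Tnmd was weak (13 cells with both, rho 0.09).
In 9 cells 10 or more chondrocyte genes were detected; 1 of them had exactly 10 and 1 other cell had 9. Col2a1, a member of the list, ran from 2191 through 9459 to 29901 in these 9 cells, against at most 2423 elsewhere. Of the 9, 4 were in the first index row and 4 in another row, out of 9 and 7 main cells there. The immediate-early and heat shock genes of the dissociation stress list, with a median of 11 of 15 members per cell, had rho of 0.60 with the chondrocyte count and 0.52 with the tendon count. Their part in these counts was not tested.
The cells with under 1000 genes bear on the cartilage transcripts. Their median was 4 of 14 chondrocyte genes (0 to 10), close to the 5 of the main cells. Col2a1 was detected in 17 of 29 such cells, at up to 2137, Comp in 16 and Col11a1 in 20. Col1a1 was detected in 28 of 29, at a median of 692, while the housekeeping gene Eef1a1 was detected in 14. Free RNA in the capture chip was not measured, and its part in low cartilage and collagen values was not tested.

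Pericyte and smooth muscle genes divided the population. Of the 43 cells, 30 had 0 to 5 of the 14 genes and 13 had 8 to 12, and no cell had 6 or 7. Nearest to the gap were 1 cell with 5 and 3 cells with 8. The share with 8 or more was 30.2% (17.2 to 46.1); it was 32.4% outside the first index row and 28.6% without the cell of most genes. Rgs5, a regulator of G protein signalling in pericytes (chromosome 1, 169655501 to 169695813), ran from 5386 through 11552 to 27738 in the 13 cells and from 0 to 622 in the 30. It had the highest median of the list there. Higd1b, a pericyte gene of unsettled function, was detected in 11 of 13 and 0 of 30 cells, and Notch3, the mural Notch receptor, in 13 of 13 and 2 of 30. These members made the count and so describe it.
Among the 14 genes the pericyte members Kcnj8 and Abcc9, subunits of 1 potassium channel, were each detected in 13 cells of the population. Those of contractile smooth muscle were detected in differing numbers of cells, with Mylk in 16, Acta2 in 15, Tagln in 10, Myh11 in 4 and Cnn1 in 0. Pdgfrb, the PDGF receptor of mural and other mesenchymal cells, was more widely detected (31 cells), as was Cspg4, which encodes NG2 (25 cells).

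Genes outside the list also differed between these cells. Col4a1, the basement membrane collagen (chromosome 8, 11198423 to 11312826), ran from 973 through 1619 to 3078 in the 13 cells and from 0 through 32.3 to 480 in the other 30, without overlap. Col4a2, its divergent neighbour whose first bases overlap it, had medians of 1301 and 14, with overlap, and rho between them was 0.81 over all 43 cells. Mgp had medians of 9348 and 1586 and Col1a1 of 1143 and 7895, both with overlap. Postn did not separate them, with medians of 858 and 819. Ebf1, a transcription factor of stroma and mural cells, was detected in 12 of 13 and 11 of 30 cells, Pdgfra in 3 and 19, Sox9, the cartilage factor, in 3 and 21, and Runx2, the osteoblast factor, in 0 and 9. The 13 cells had a median of 3193 detected genes and the 30 a median of 2800, and 6 of the 13 came from 1 index row that held 11 main cells. The genes most like Rgs5 were Atp1b2 (a sodium pump subunit, rho 0.82), Aoc3 (a vascular amine oxidase, 0.81), Kcnj8 (0.78), Gucy1a3 (a guanylate cyclase subunit, 0.77) and Esam (a junction protein of vessels, 0.77).

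**Figure D3:**
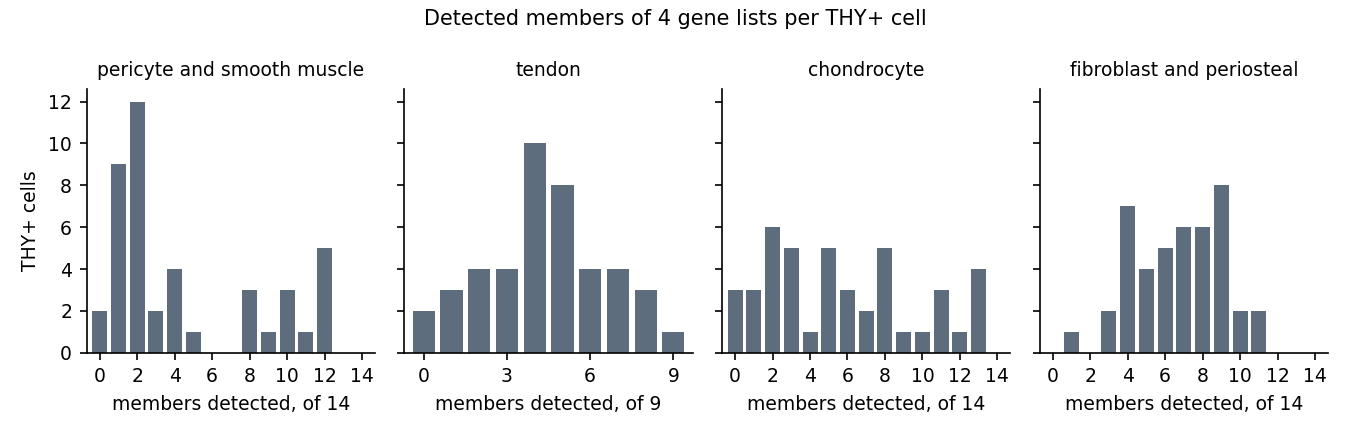
Number of THY+ cells by how many members of each of 4 gene lists were detected, for the 43 cells. Pericyte and smooth muscle counts leave 6 and 7 of 14 empty between 30 and 13 cells, whereas tendon, chondrocyte and fibroblast counts run without such a gap at their middle.

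Only 1 library had 8 or more pericyte genes together with 6 or more tendon or 10 or more chondrocyte genes. Other cells lay just below these counts. Of the cells with 12 pericyte genes, 1 had 9 chondrocyte genes and another had 8 chondrocyte and 5 tendon genes. The medians over the 13 cells with 8 or more pericyte genes were 2 chondrocyte and 3 tendon genes. Of all 43 cells 27.9% were in the tendon range, 20.9% in the chondrocyte range and 41.9% had 8 or more fibroblast and periosteal genes. Of the 13 cells with 8 or more pericyte genes, 1 was among the 12 with 6 or more tendon genes (7.69% and 8.33% of each set) and 1 among the 9 with 10 or more chondrocyte genes (7.69% and 11.1%). Both were the library with the most detected genes, and without it the counts were 0 and 0. That library had Rgs5 at 6702, Tnmd at 1060 and Col2a1 at 29901. Tnmd and Rgs5 were detected together in 5 cells at the threshold of 1. The tendon and chondrocyte ranges shared 3 cells (25% and 33.3% of each). The tendon range and the 18 cells with 8 or more fibroblast and periosteal genes shared 6 (50% and 33.3%), and the 13 cells shared 2 with those 18 (15.4% and 11.1%). The tendon range thus overlapped the chondrocyte and fibroblast ranges at shares near those of all 43 cells, and none of these overlaps was tested.

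**Figure D4:**
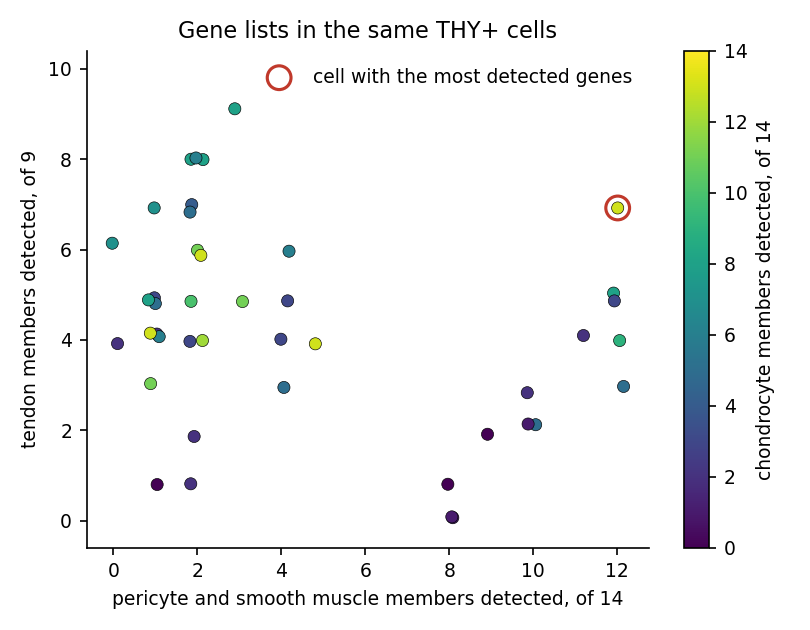
Tendon members detected (of 9) against pericyte and smooth muscle members detected (of 14) in each of the 43 THY+ cells, with small random offsets and with colour for chondrocyte members. The ringed cell, with 5786 detected genes, is the only one with 8 or more pericyte and 6 or more tendon genes.

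Marrow stromal and osteoblast genes were sparse. A cell had 0 to 6 of 11 stromal genes, with a median of 2. Ebf1 was detected in 23 cells, Foxc1 in 15, Csf1, the macrophage growth factor, in 13, and Kitl, the stem cell factor, in 12. Cxcl12, the chemokine that retains blood stem cells (chromosome 6, 117168535 to 117181367), was detected in 8 cells (18.6%, 8.39 to 33.4) at up to 501, and Lepr, which marks adult marrow stroma, in 5. Of the 8 cells with Cxcl12, 7 also had Ebf1 and 3 had Kitl. The count of stromal genes had a rho of 0.49 with the pericyte count, and both moved with the number of detected genes (0.47 and 0.44). The genes most like Cxcl12 were Ebf2 (rho 0.63) and Meox2 (0.56).
Of the 17 osteoblast genes, a cell had 2 to 8, with a median of 4, and 3 of the most frequent were the matrix genes Col1a1, Col1a2 and Sparc. Runx2 was detected in 9 cells (at up to 232), Dlx5 in 10 and the parathyroid hormone receptor gene Pth1r in 11. Alpl, the mineralising phosphatase, and Spp1, osteopontin, were each detected in 4 cells, and Ibsp, bone sialoprotein, in 1. Sp7, Msx2, Bglap, Bglap2 and Phex were listed in 0 of 43 cells, which allows a share of cells with the transcript detected of up to 8.22% each and sets no limit on expression. Col2a1 was detected in 8 of the 9 cells with Runx2 and in 30 of all 43, and Alpl in 3 of the 9.

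Markers of blood and vessel lining cells were detected in few cells. None of 5 pre-B and 6 osteoclast genes was detected in any cell. Of 10 myeloid genes Cd68 alone was detected, in 2 cells, and of 9 endothelial genes no cell had more than 1, with Pecam1, Emcn and Cldn5 at 0. Of 6 measured erythroid genes no cell had more than 1, and Epor, the erythropoietin receptor gene, was detected in 2 cells, at up to 1263. Among 7 skeletal muscle genes Myod1, Myog and Pax7 were at 0, while Acta1 was detected in 17 cells at no more than 21.5.

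The 6C3+ population, the other gate with its own antigen, had 34 cells of at least 1000 genes and a median of 2639 genes, against 2835 in THY+. Rgs5, Col4a1 and Postn were higher in THY+ than in 6C3+ cells, and Prg4 and Col2a1 were lower. The measure was the difference of mean log2(FPKM + 1), THY+ minus the other population. Called here means 2 or more either way, with no replicate check. The 8224 genes found in 10% or more of the pooled cells of both populations were tested, and 78 were called higher (0.948%) and 18 lower (0.219%) in THY+. The median over all of them was 0.26. With FPKM rescaled to the same endogenous total 0.474% were higher and 1.26% lower and the median was -0.05, so the balance between directions depends on the scale, and list medians are given beside that of all genes.

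Of the 14 genes of pericytes and smooth muscle 13 were higher in THY+ and 7 called (median 1.96), and 6 were called on the rescaled values. List counts and medians here and below are over all measured members, whether or not they passed the filter. Of the 7 called, 5 were detected in under 10% of 6C3+ cells and so passed the filter through THY+. Rgs5 had the largest difference of the list (3.31), with 16 of 43 THY+ and 6 of 34 6C3+ cells detected and highest values of 27738 and 2301. Higd1b (2.42), Acta2 (2.24) and Mcam, an adhesion molecule of mural cells (2.16), followed. The share of cells with 8 or more of the genes was 30.2% in THY+ and 1 of 34 (2.94%, 0.0744 to 15.3) in 6C3+; it was 0 of 11 in CSP and 1 of 37 in mSSC. With those cells left out of both populations, 44 genes were called higher and 20 lower, and none of the 14 was called higher; the cells were chosen by these genes, so the last count follows from the choice.
Col4a1 had the largest difference of the named genes higher in THY+ (3.98; medians of 187.3 and 0.952), and it was 2.35 without those cells. Col4a2 was also called (2.50), and of the 10 basement membrane genes 9 were higher and 2 called, against 8 and 2 when rescaled. Marcks, an actin-binding kinase substrate (3.51), Tmsb4x (3.22), Klf6, a zinc finger factor (3.06), and the actin-binding Cald1 (3.00) were among the 10 highest. Tmsb4x was 1.84, Cald1 1.48 and Nr2f2, a nuclear receptor of mesenchyme, 1.01 (from 2.81) without the cells of many pericyte genes. Postn did not depend on them, at 3.10 with and 3.15 without, and its medians were 837 and 226.6.

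Of 14 chondrocyte genes 11 were lower in THY+ and 5 called (median -1.62), with 8 called on the rescaled values. Prg4, the lubricin of joint surfaces, had the largest difference (-4.19). It was detected in 14 of 43 THY+ and 25 of 34 6C3+ cells, with medians of 0.000369 and 100.6. Col2a1 (-2.83; medians 7.66 and 938), Chad (-2.76), Col9a2 (-2.63) and Lect1, also known as Cnmd (-2.46), were called lower. So were Scrg1 (-3.07), the secreted WNT inhibitor Wif1 (-2.66) and the chaperone Clu (-2.42). The 14 fibroblast and periosteal genes were divided, with 8 higher and 6 lower and a median of 0.07. On the rescaled values 10 of the 14 were lower. Of 9 tendon genes 6 were higher and none called, and 6 of 9 were lower once rescaled, so no direction is given for these lists. The 14 fibrous collagen genes, 12 higher as deposited, had 9 lower when rescaled.

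**Figure D5:**
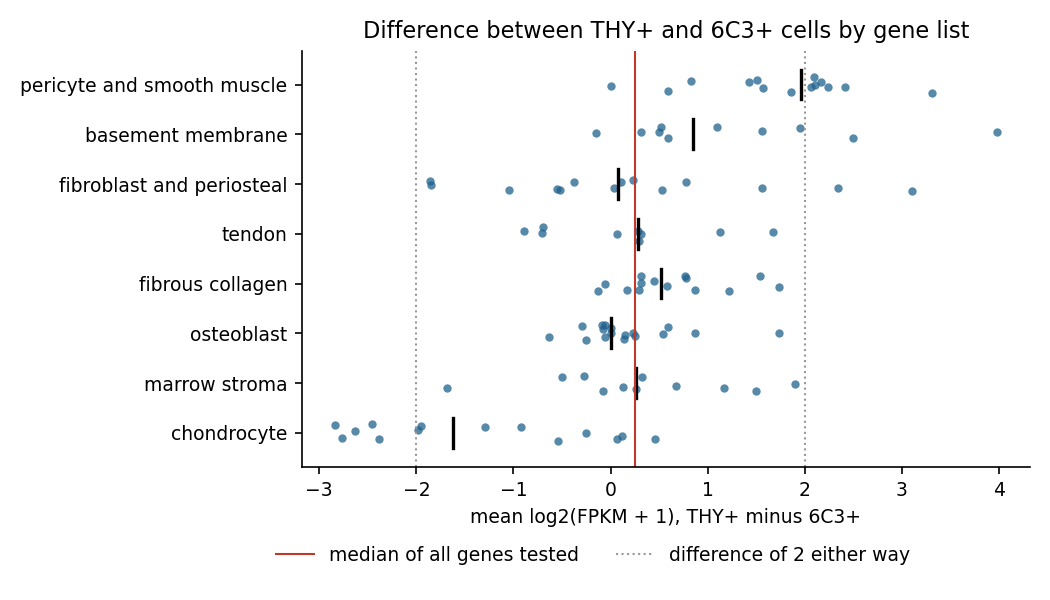
Difference of mean log2(FPKM + 1), THY+ minus 6C3+, for the measured members of 8 gene lists, 1 point a gene, with a black bar at the list's median and a red line at the median of all 8224 genes tested (0.26). Pericyte and smooth muscle genes lie mostly to the right and chondrocyte genes mostly to the left of that line.

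Against CSP (11 cells) and mSSC (37 cells) the fibrous collagens were higher and cartilage genes lower in THY+, and these comparisons share the THY+ cells with the one above. Against CSP, 274 of 8240 genes were called higher (3.33%) and 472 lower (5.73%), and against mSSC 1.87% of 8142 genes were called higher and 2.98% lower. Of the genes called against mSSC, 38.5% were higher as deposited and 49.9% when rescaled. All 14 fibrous collagen genes were higher in both, with medians of 3.04 and 2.70 and 10 and 9 called, and all 14 chondrocyte genes were called lower in both, with medians of -7.04 and -6.52. Of these Matn1, which encodes a cartilage matrilin, was detected in only 2 of 43 THY+ cells and passed the filter through the other populations. Lgals1, which encodes galectin 1, was among the 10 highest in both (8.93 and 7.67). The 9 tendon genes had medians of 1.99 and 1.77, with 7 and 8 members higher and 4 and 3 called higher. Of the 4 called against CSP 3 were detected in under 10% of CSP cells, and of the 10 collagens called against CSP 4 were. Against mSSC, 2 of the 3 tendon genes and 1 of the 9 collagens called higher were detected in under 10% of mSSC cells. These genes passed the filter through THY+. Fmod went the other way, at -1.67 against CSP and -4.04 against mSSC, the largest tendon difference there. The signs of the list medians also held on the rescaled values.
Among the dissociation stress genes 12 of 15 were lower in THY+ than in CSP and 13 of 15 than in mSSC, with 2 and 8 called. Of all genes tested, 3700 of 8240 and 3494 of 8142 were lower. Rescaled, 13 and 11 of the 15 were lower, with 2 and 6 called. Against 6C3+, 10 of 15 were higher, beside 5748 of all 8224 genes tested. Rescaled, 9 of 15 were higher there, so no direction is given for this list against 6C3+. No mSSC cell had an ERCC share over 0.0276% and none of the 11 CSP cells one over 0.00428%. The part of this gap between index sets in these differences was not tested.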

How the data were processed

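Single cells were captured and amplified on a Fluidigm C1 chip with SMARTer chemistry, and Nextera XT was used for the libraries, per the labels' protocols. The authors deposited FPKM for 24388 genes and 92 spike-ins, 1 column a cell. The build was mm10 and SAMtools was used, per the submitters' processing notes; the aligner, FPKM program, annotation and use of strand: not given in the sources used here. No read counts can be had from FPKM, so the precision of a cell's values is unknown. Of mitochondrial genes the table lists 0.

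Columns were matched to cells by index names, with 0 unmatched and 0 identical columns. The 3 comparisons, THY+ minus 6C3+, CSP or mSSC, used mean log2(FPKM + 1) over cells with at least 1000 genes, for genes detected (FPKM of at least 1) in at least 10% of cells. scipy 1.17.1, pandas 2.3.3, matplotlib 3.10.9 and numpy 2.4.6 under Python 3.11.15 were used. The comparison was tested on simulated data, and the correlation was checked only on a short made-up pair of series in the same order. Coordinates and lengths come from GENCODE for mm10, promoters from RefSeq.

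Genes were named by rule: markers and sort antigens, the 25 highest medians, the 12 smallest and 12 largest SD, 15 genes of mid detection, up to 6 members of each of 25 lists by share of cells, 5 genes most like each of 7 anchors, and the 10 highest and 10 lowest differences. A few genes that the rule names are not reported here. Unnamed models, pseudogenes, ribosomal and sex-linked genes were left out. Other list members and genes compared between sets of cells were picked once values had been seen. The members and lists were chosen with earlier results of these data known; all but 2 list genes were in the table, with Cnmd as Lect1. Alternatives were pseudocounts of 0.1 and 10, rescaling to 1000000, no filter, other detection and gene thresholds, all cells and cells outside the first index row. Leaving out the cell with the most genes, or cells with many pericyte genes, was added after seeing the data.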

Additional observations from a re-analysis of the deposited data

How the results depend on the processing

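The depth in reads is unknown, each population is 1 sample and THY+ has an index set of its own, which limits every comparison. No paired analysis was possible because each sample is 1 cell, numbered in accession order. Thy1 and Col1a1 shares stayed within their intervals under each alternative run. Over all 72 cells Postn was detected in 76.4% and Postn with Tnc in 58.3%. With detection above 0, Col3a1 was in 100% of cells. At FPKM of 10, Tnmd with Col2a1 was in 16.3%. Of the 25 abundant genes 14 remained over all cells, and of the 12 genes of smallest spread 7 remained with a pseudocount of 10. Against 6C3+, 3.79% of genes tested were called higher and 1.03% lower with a pseudocount of 0.1, 0.17% and 0.0243% with 10, 0.474% and 1.26% rescaled, and 3.74% and 0% over all cells, where the median of all genes was 0.58; 0.564% were called higher without the cells of many pericyte genes. Against CSP the percentages were 9.26 and 12.5 with a pseudocount of 0.1, 0.837 and 1.52 with 10, and 2.11 and 0.646 over all cells. Against mSSC they were 6.67 and 5.5, 0.442 and 1.13, and 0.3 and 11.9. The 60 named differences kept their sign in all but 1 case: Nupr1 against 6C3+ was 0.0224 over all cells. With a pseudocount of 10 and over all cells, 11 and 12 of them were no longer called. The cause of these moves was not tested.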

Other observations

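Limb patterning factors were detected in part of the THY+ cells. Prrx1, a homeobox gene of limb mesenchyme, was detected in 33 of 43 cells, Hoxa10 in 16 and Twist1 in 14, while Pitx1 and Lmx1b were listed in 0. Tbx5, a factor of the forelimb, and Tbx4, a factor of the hindlimb, were detected in 8 cells each, and 3 cells had both at the threshold of 1. In each of these 3 cells the lower of the pair stood between 1.40 and 2.01 FPKM and the higher between 66.3 and 643, so no cell had both at an FPKM of 10. Tbx5 was listed in 0 of the 13 cells with 8 or more pericyte genes and in 8 of the other 30, and Tbx4 in 2 and 6. The labels do not say which limbs were pooled.

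Growth factor receptors ranged from 4 to 16 of 16 detected members per cell, with a median of 7. Igf1r and Notch2 were the most often detected (36 cells each), then Fgfr1 (32) and Pdgfrb (31), against 8 for Fgfr3 and 9 for Notch1. Proliferation genes had a median of 2 of 17 members, and 4 cells had 9 to 15 of them, with no cell at 8 and 1 cell each at 7 and 9. The most often detected were Pcna (21 cells), Mcm6 (12) and Top2a (11). Of these 4 cells none was in the pericyte range, 2 were in the fibroblast and periosteal range, and 1 each in the tendon and chondrocyte ranges. Of 7 adipocyte genes Lpl was detected in 12 cells, Cebpa in 10 and Fabp4 in 7, at up to 10179, while Adipoq, Plin1 and Cfd were listed in 0. Of 6 Schwann genes S100b, which cartilage also expresses, was detected in 10 cells, and Sox10 in 0.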
